A study of Danio rerio with 6 samples.

Results

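Among the 32520 genes of the deposited table, 4 genes of the zebrafish male pathway were examined in whole juveniles: amh (ENSDARG00000014357), gsdf (ENSDARG00000075301), dmrt1 (ENSDARG00000007349) and sox9a (ENSDARG00000003293). They were chosen by their Ensembl identifiers, for their known place in testis differentiation and in the supporting cells of the gonad. The rule itself uses no measured value, but earlier results of these data were known when the genes were chosen. The exposed animals, called EM-juveniles, were AB strain zebrafish kept for 32 days in 10 µg/L exemestane (EM), a steroid drug that blocks aromatase and with it the synthesis of estrogens from androgens. Exposure began at fertilization, so the fish were taken at 32 days post-fertilization. The control juveniles were of the same strain and age and had only the solvent, dimethyl sulfoxide (DMSO), at 10 µL/L. The EM-juveniles had DMSO at the same 10 µL/L beside the drug. Each group had 3 poly(A) RNA-seq libraries, each made from 25 whole bodies of 1 tank, so the sex of the fish was not separated and the gonad is a small part of the RNA. The study holds that sex differentiation was complete by the age at which the fish were taken. The comparison asks which genes differ between EM-juveniles and control juveniles at that age.

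Laboratory zebrafish first form a juvenile ovary in all individuals, and in future males this ovary is remodelled into a testis. The genes that drive this turn work at least in part in the somatic cells around the germ cells. The secreted factors Amh and Gsdf belong to the TGF-beta superfamily, and the transcription factors Dmrt1 and Sox9a act inside the cells. In zebrafish, loss of amh or dmrt1 shifts populations toward females. None of the 4 genes is private to the testis: amh and gsdf are also made by granulosa cells of the ovary, and sox9a is needed for cartilage.

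The libraries held from 3169530 counts (control replicate 2) to 7804654 counts (EM replicate 1). Control replicate 2 stood apart, with 21182 genes detected against 24418 to 24966 in the others, and with 39.0% of its counts in the 100 most abundant genes against 21.3 to 25.1%. Its size factor, which scales counts between libraries, was 0.404, so 1 read there was worth 2.48 normalised counts, against 0.585 to 1.12 elsewhere. The values of the 4 genes are therefore given with and without it. In the 13119 genes that had 10 or more counts in all libraries, the median log2 fold change of EM over control was -0.13 with all libraries and 0.005 without control replicate 2. Genes of nerve (elavl3) and cartilage (col11a1a) were present in every library, as in whole bodies, but not always at like levels. The 5 nerve and glia genes examined below summed to 7604 normalised counts in control replicate 2, against 3091 to 4433 in the other libraries. The 15 cartilage genes summed to 8087 there, against 6637 to 14560.

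The gene amh, which encodes the anti-Müllerian hormone made by Sertoli cells, had more reads in every library of EM-juveniles than in any control library. Its normalised read counts were 57.96, 41.05 and 27.98 in EM replicates 1, 2 and 3, against 6.44, 0 and 12.98 in control replicates 1, 2 and 3. The lowest EM library stood above the highest control library, so the groups did not overlap. Behind these values stood 99, 37 and 25 reads in EM-juveniles and 8, 0 and 20 reads in control juveniles. For counting error alone, the absence of reads in control replicate 2 allows up to 7.43 normalised counts, the worth of 3 reads. The two-sided 95% Poisson interval reaches 9.14, and both values are under the lowest EM library. In that control library, 60 genes with at least 50 normalised counts in every other library also had no read. Its 0 therefore does not bound the level of amh. The mean was 42.3 ± 15.0 in EM-juveniles and 6.47 ± 6.49 in control juveniles (SD, n = 3 each), a ratio of 6.54. The control mean was 9.71 and the ratio 4.36 without control replicate 2. In whole bodies, fewer cells of a type and less RNA per cell cannot be told apart, which holds for every gene below.

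**Figure D1:**
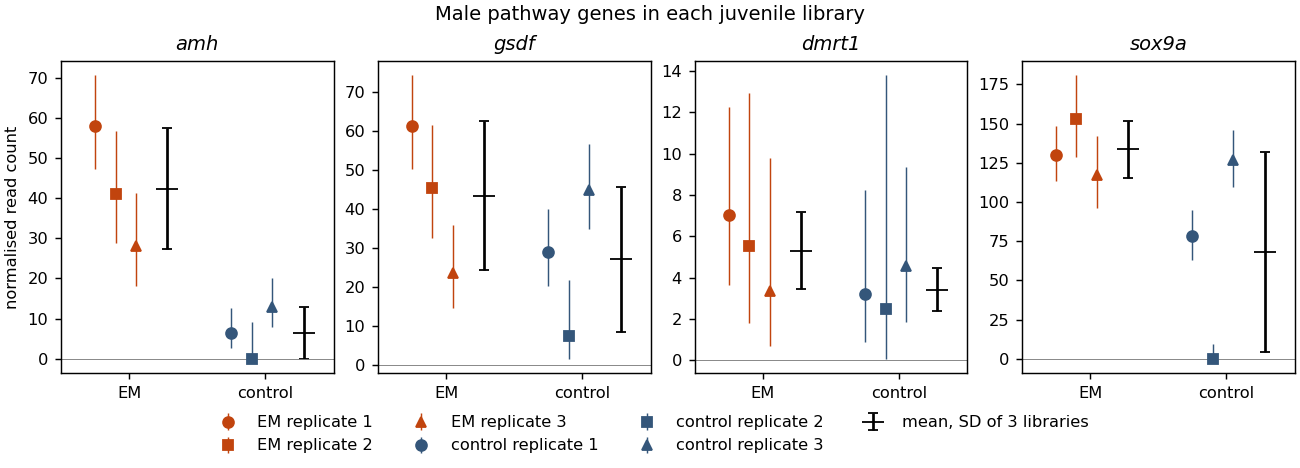
Normalised read counts (vertical axis, linear) of amh, gsdf, dmrt1 and sox9a in the 3 EM and 3 control libraries. Coloured points are libraries with 95% exact Poisson intervals, which cover counting error only, and black bars are the mean and SD of 3 libraries. For amh the EM libraries lie between 27.98 and 57.96 and the control libraries between 0 and 12.98, while the groups overlap for gsdf, dmrt1 and sox9a.

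With DESeq2 on all 6 libraries, the log2 fold change of amh was 2.52 ± 0.77 (SE), with a 95% interval of 1.02 to 4.03. The adjusted p-value was 0.0827 (unadjusted 0.00101), so amh missed the threshold of 0.05 by a small margin. It ranked 293rd by p-value, where 260 genes were called. The 4 genes gave 0 calls in this comparison, against 1.08% of the 23966 tested genes, or 0.421% for calls that were higher in EM-juveniles. In DESeq2, though not in edgeR (below), leaving out either of 2 control libraries brought amh under the threshold. Without control replicate 2 its log2 fold change was 2.13 ± 0.59 (SE), with an interval of 0.98 to 3.28 and an adjusted p-value of 0.0285. In that comparison 1.15% of 23411 genes were called, 0.337% higher and 0.816% lower. Without control replicate 3 it was 3.37 ± 0.97 (SE), with an adjusted p-value of 0.0405, where 1.28% of 21168 genes were called, 0.524% higher and 0.751% lower. That fit dropped the highest control value of amh, 12.98, and kept the 0 of control replicate 2, which does not bound its level. With any of the other 4 libraries left out instead, the adjusted p-value was 0.364 to 0.772.

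The quasi-likelihood test of edgeR gave nearly the same size for amh, a log2 fold change of 2.48, but an adjusted p-value of 0.916. That test called 0% of 19264 genes. Of these, 759 had an unadjusted p-value under 0.05, a share smaller than 0.05 itself. Without control replicate 2, edgeR called 127 of 20784 genes but not amh, which had a log2 fold change of 2.11 and an adjusted p-value of 0.248. Without control replicate 3, edgeR called 0 genes and gave amh an adjusted p-value of 0.436. The limma voom fit called 93 genes. Voom put amh at 2.38 with an adjusted p-value of 0.1, where 0.0831% of genes were called higher. The exact two-sided permutation test over the 6 libraries gave p = 0.1 for amh, the smallest value that 3 libraries against 3 allow. Of all genes tested, 5.7% had every EM library above every control library, as amh did, and 5.6% had every EM library below every control library. A larger log2 fold change than that of amh was found for 2.63%.

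**Figure D2:**
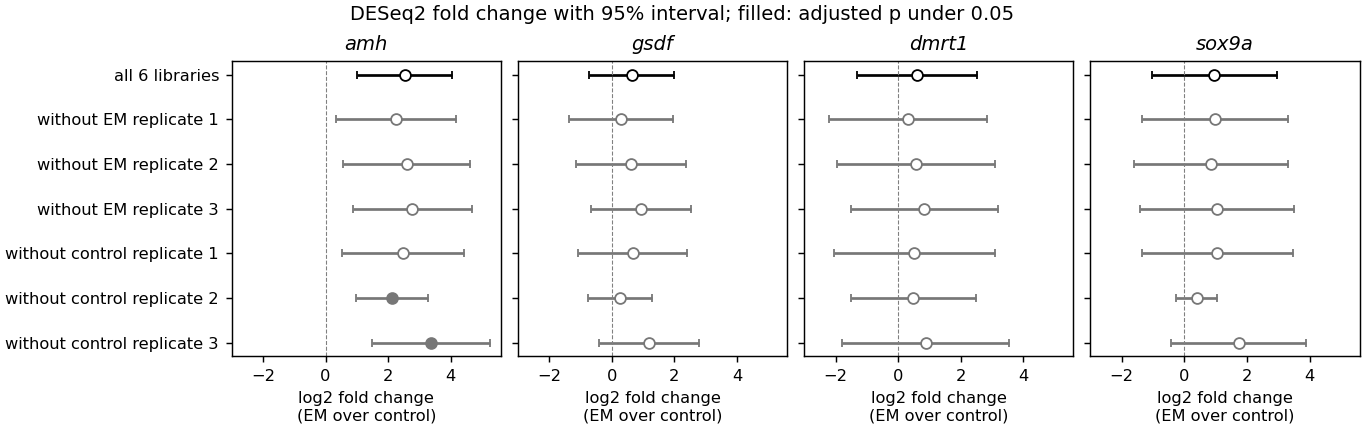
Log2 fold change of EM over control (horizontal axis) from DESeq2 for the 4 genes, with all 6 libraries and with each library left out. Bars are 95% intervals, and filled points have an adjusted p-value under 0.05. Every interval of amh lies above 0, and it is filled only without control replicate 2 (2.13) and without control replicate 3 (3.37). Every interval of gsdf, dmrt1 and sox9a spans 0.

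The gene gsdf encodes the gonadal soma derived factor, a fish ligand of Sertoli and granulosa cells. It had normalised read counts of 61.5, 45.5 and 23.5 in EM replicates 1, 2 and 3, against 29.0, 7.43 and 44.8 in control replicates 1, 2 and 3. EM replicate 3 lay below 2 of the control libraries, and the groups overlapped. The mean was 43.5 ± 19.1 in EM-juveniles and 27.1 ± 18.8 in control juveniles (SD, n = 3 each). Its log2 fold change was 0.63 ± 0.70 (SE), with an interval of -0.73 to 2.00. Its adjusted p-value was 1 in DESeq2, and the exact permutation test gave 0.4. Without control replicate 2, whose value rests on 3 reads, it was 0.26 ± 0.53 (SE), with an interval of -0.77 to 1.29. A change of gsdf was thus not detectable, while changes up to the ends of these intervals remain possible. In the RefSeq annotation of the GRCz12tu assembly, the spans of gsdf and ppef2b overlap, without regard to strand. The reads were counted by strand on GRCz11, and how they were divided between the pair was not tested. The identifier named PPEF2 in the table of gene names, which does not say whether it is ppef2a or ppef2b, had 15.81, 16.64 and 15.67 normalised counts in EM-juveniles, against 20.92, 401.3 and 11.04 in control juveniles. It was thus far higher in control replicate 2 than in any other library, and DESeq2 gave it no adjusted p-value. Its relation to gsdf was not tested.

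The gene dmrt1, a DM-domain transcription factor required for testis development, was close to the limit of detection. It had 12, 5 and 3 reads in EM replicates 1, 2 and 3, against 4, 1 and 7 reads in control replicates 1, 2 and 3, or 32 reads in all. As normalised read counts these were 7.03, 5.55 and 3.36 in EM-juveniles and 3.22, 2.48 and 4.54 in control juveniles. EM replicate 3 lay within the range of the controls. The mean was 5.31 ± 1.85 in EM-juveniles and 3.41 ± 1.05 in control juveniles (SD, n = 3 each). The log2 fold change was 0.59 ± 0.98 (SE), with an interval of -1.33 to 2.51. Its adjusted p-value was 1 in DESeq2, and the exact permutation test gave 0.2. The log2 fold change was 0.48 ± 1.02 (SE) without control replicate 2. The expression filter used with edgeR and voom removed dmrt1, so these tests gave no value for it. At this depth the interval of dmrt1 holds both 0 and a change nearly as large as that of amh. The span of dmrt1 in GRCz12tu overlaps those of dmrt3a, dmrt2a, adamts3 and smarca2, of which dmrt3a and dmrt2a belong to the same family.

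The gene sox9a encodes an HMG-box transcription factor of Sertoli cells and chondrocytes. Its normalised read counts were 130, 153 and 118 in EM replicates 1, 2 and 3, against 78.0, 0 and 127 in control replicates 1, 2 and 3. The EM libraries lay close together, control replicate 3 fell among them, and control replicate 2 had no read of the gene. The mean was 134 ± 18.1 in EM-juveniles and 68.2 ± 63.9 in control juveniles (SD, n = 3 each). The log2 fold change was 0.95 ± 1.02 (SE), with an interval of -1.04 to 2.94. Its adjusted p-value was 1 in DESeq2, and the exact permutation test gave 0.2. Without control replicate 2 it was 0.39 ± 0.33 (SE), with an interval of -0.26 to 1.05, and the ratio of means was 1.31. The size of the difference in sox9a thus rested largely on that library.

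Other genes lacked reads in control replicate 2 as sox9a did. Of 10179 genes with at least 50 normalised counts in each of the other 5 libraries, 60 (0.589%) had no read in control replicate 2, and 277 (2.72%) had at most 3 reads. In each of the other libraries the corresponding number without a read was 0 or 1, of 8588 to 8673 genes. The profiles most like that of sox9a, chosen over all 6 libraries and so with this gap in the measure, were those of sftpbb, of the gene named BMP3 and of pttg1ipa, with root mean square differences of 0.0586, 0.0685 and 0.141 (log2). The gene named BMP3 had 127, 145 and 127 normalised counts in EM-juveniles, against 77.2, 0 and 117 in control juveniles. In the cartilage list, acanb, which encodes an aggrecan of the cartilage matrix, had 163, 132 and 148 in EM-juveniles, against 61.9, 0 and 91.5 in control juveniles. It was the only 1 of the 15 cartilage genes without a read in control replicate 2. The cartilage matrix gene matn1 had 1843 normalised counts there, above the 923 and 1255 of the other controls.

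Cartilage genes were examined because sox9a is also needed for cartilage. Of the 15 that were tested, 0 were called, against 1.08% of all genes tested. A log2 fold change above 0 was found for 13 of them, against 50.1% of all genes tested. They are genes of 1 tissue measured in the same libraries, so their signs are not independent. Their median log2 fold change was 0.48, against 0.001 over all genes. Without control replicate 2 the median was 0.37, and 1 of the 15 genes was called, against 1.15% of all genes tested. This was cnmd, which encodes the cartilage protein chondromodulin, at 0.94 ± 0.24 (SE) with an adjusted p-value of 0.0125. The summed level of the list ran from 8456 to 14560 normalised counts in EM-juveniles and from 6637 to 10900 in control juveniles. The most abundant members, col11a1a and col11a2, collagen genes, had log2 fold changes of 0.26 ± 0.47 and 0.16 ± 0.51 (SE). The part of cartilage in the values of sox9a was not tested.

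The 4 genes were also set against each other within each library, since a share of the reads of 2 genes does not depend on the scaling of the libraries. It does not compare their abundance, because gene lengths differ. These shares were examined after the values of the genes were known, and they carry no test. Of the reads of amh and gsdf together, amh took 48.5%, 47.4% and 54.3% in EM replicates 1, 2 and 3, against 18.2% and 22.5% in control replicates 1 and 3. The 95% exact intervals ran from 36.0 to 69.1% over the EM libraries and from 8.19 to 32.7% over these controls. Control replicate 2 had 0 of 3 reads, which leaves an interval up to 70.8%. Of the reads of amh and sox9a, amh took 30.8%, 21.1% and 19.2% in EM-juveniles, against 7.62% and 9.30% in control replicates 1 and 3, while control replicate 2 had no read of either. Here the intervals ran from 12.85 to 36.2% over the EM libraries and from 3.35 to 14.5% over these controls, so that of EM replicate 3 overlapped those of the controls. Of the reads of amh and dmrt1, amh took 89.2%, 88.1% and 89.3% in EM-juveniles, against 66.7% and 74.1% in control replicates 1 and 3. With intervals of 71.8 to 97.7% over the EM libraries and 34.9 to 90.1% over these controls, the groups overlapped. The amh share was thus higher in EM-juveniles beside each of the other genes, but control replicate 2 aside, all intervals of the groups were separate only beside gsdf. For sox9a and gsdf the picture was different. The sox9a share was 67.9%, 77.1% and 83.3% in EM-juveniles, against 72.9% and 73.9% in control replicates 1 and 3, and these ranges overlapped. The dmrt1 share of the reads of dmrt1 and gsdf was 10.3%, 10.9% and 12.5% in EM-juveniles, against 10.0% and 9.21% in control replicates 1 and 3.

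**Figure D3:**
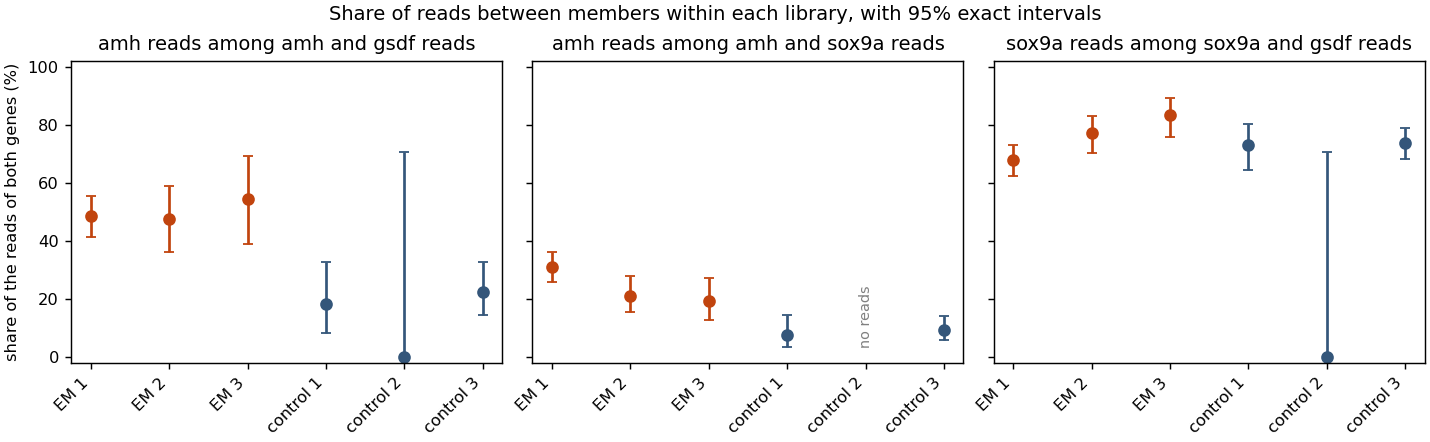
Share of reads (vertical axis, %) of 1 gene among the reads of 2 genes in each of the 6 libraries, with 95% exact (Clopper-Pearson) intervals that cover counting error only. The amh share against gsdf is 47.4 to 54.3% in the EM libraries and 18.2 to 22.5% in control replicates 1 and 3. The sox9a share against gsdf overlaps between the groups, and control replicate 2 has 0 to 3 reads in the pairs plotted.

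Within the EM-juveniles, amh, gsdf and dmrt1 were each highest in replicate 1 and lowest in replicate 3, by 2.07, 2.62 and 2.09 times. The gene sox9a kept another order, highest in replicate 2, and differed by only 1.30 times. Among control replicates 1 and 3, each of the 4 genes was higher in replicate 3, by 1.41 times for dmrt1 up to 2.02 times for amh. The 95% counting intervals of control replicates 1 and 3 overlapped for amh, gsdf and dmrt1, and those of EM replicates 1 and 3 for dmrt1 but not for amh and gsdf. The log2 fold changes of the 4 genes had a median of 0.79, or 0.44 without control replicate 2, against 0.001 and 0.009 over all genes tested. All of them were above 0, as were 50.1% of all genes tested, but the intervals of gsdf, dmrt1 and sox9a spanned 0. Each of the 4 genes was lowest among the controls in control replicate 2, so their signs are not independent.

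The genes whose centred profiles over the 6 libraries lay nearest to each member were listed among those with a mean of at least 10 normalised counts. For amh they were si:dkey-205h13.2, ENSDARG00000103034 and si:ch73-334d15.4, with root mean square differences of 0.409, 0.416 and 0.42 (log2). The first had 146, 148 and 118 normalised counts in EM-juveniles, against 38.6, 4.95 and 53.2 in control juveniles. These differences were larger than those found for the other members. They are not scaled for counting error, so closeness cannot be compared between members. The mean of dmrt1, 4.36 normalised counts, was itself under the minimum set for the neighbours. The nearest were SLC6A15 (0.0793), GPM6B (0.0895) and si:ch211-196h24.2 (0.104) for gsdf. For dmrt1 they were irge4 (0.0481), alpi.1 (0.0761) and kcnd1 (0.0884). None of these genes was called, and a near profile says nothing of a shared function.

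Candidate genes of Amh signalling were examined next. Zebrafish have no known ortholog of the Amh receptor of mammals, and BMP-type receptors with their SMAD proteins are the candidates for its signal. Of 11 such genes tested, 0 were called, against 1.08% of all genes tested, and the median log2 fold change was 0.14. At that share, 0 calls in so short a list says little, which holds for every list below with 0 calls. Among the 11 genes bmpr2a, a type II receptor, had 152, 115 and 134 normalised counts in EM-juveniles, against 109, 24.8 and 135 in control juveniles. The most abundant were id1, a target of BMP signals, at 0.37 ± 0.28 (SE), and bmpr1aa, a type I receptor, at -0.47 ± 0.49 (SE). Of the other dmrt and soxE genes 4 were tested and 0 called. The second identifier named SOX9 in the table of gene names had 108, 39.9 and 56.0 in EM-juveniles, against 87.7, 71.8 and 100 in control juveniles, with a log2 fold change of -0.34 ± 0.50 (SE). The related sox10, a neural crest factor, was at -0.12 ± 0.55 (SE).

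Of 11 further transcription factors of the gonad, 0 were called, against 1.08% of all genes tested, with a median of 0.14. The most abundant were lhx9, a factor of the early gonad, at -0.31 ± 0.52 (SE) and nr0b2a, an orphan nuclear receptor, at -0.49 ± 0.47 (SE). Other Sertoli cell genes gave 0 calls of 5. Among them cldn11a, a tight junction gene of Sertoli cells in mammals, had 110, 119 and 88.4 normalised counts in EM-juveniles, against 50.7, 19.8 and 85.1 in control juveniles. The lowest EM library stood just above the highest control library, an order that 5.7% of all genes tested showed, and its log2 fold change was 0.98 ± 0.55 (SE) with an adjusted p-value of 0.789. The abundant cyp26b1, which degrades retinoic acid, was at 0.63 ± 0.52 (SE). Of the 5 genes, igf3 alone had a log2 fold change below 0, at -2.05 ± 1.54 (SE). Its EM libraries all stood below its control libraries, an order that 5.6% of all genes tested showed, but no library had more than 6 reads. The gonadotropin receptor fshr was hardly detected, with at most 2.41 normalised counts in any library.

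The genes of other gonadal cells were read beside amh. In the ovarian somatic list 0 of 4 tested genes were called, and the most abundant, inhbaa, an activin subunit, and rspo1, a Wnt agonist, were at -0.11 ± 0.38 and -0.09 ± 0.45 (SE). The gonadal aromatase gene cyp19a1a, whose enzyme EM inhibits, had at most 2 reads in any library, so its level could not be compared. In the list of androgen synthesis and Leydig cells 1 of 8 tested genes was called, against 1.08% of all genes tested. This was cyp11a1, a side-chain cleavage enzyme that opens steroid synthesis, while cyp11a2 of the same list could not be matched to an identifier. The gene cyp11a1 had no reads in the 3 EM libraries, against 23.3, 2.48 and 16.2 normalised counts in control juveniles (DESeq2, adjusted p-value 0.0124). Taking 3 reads per EM library as the floor, the control mean of 14.0 was 4.98 times the mean floor. That ratio leaves out the spread of the controls. The 2.48 of control replicate 2, from 1 read, lay under the floors of EM replicates 2 and 3 (3.33 and 3.36). The gene star, which brings cholesterol into mitochondria, had 24.0, 66.6 and 101 in EM-juveniles, against 16.9, 14.9 and 37.0 in control juveniles, and was not called (1.43 ± 0.69, SE). The most abundant gene of the list, hsd11b2, which takes part in the synthesis of 11-ketotestosterone, was at -0.14 ± 0.42 (SE).

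Oocyte genes ran the other way from amh. DESeq2 called 7 of 9 tested oocyte genes lower in EM-juveniles, against 0.663% of all genes tested. The number was the same without control replicate 2, against 0.816%. The study had already named zar1 and zpcx as higher in control juveniles of these data. The list was therefore not independent of them, and its count is a description. The summed level of the oocyte list was 6.66 to 21.7 normalised counts in EM-juveniles and 438 to 2008 in control juveniles. The zona pellucida gene zp3b had 7.61, 2.22 and 3.36 in EM-juveniles, against 340, 91.7 and 208 in control juveniles, a log2 fold change of -5.52 ± 0.72 (SE). The others called were zar1, buc, zpcx, org, figla and h1m, among them the regulator of oocyte genes figla and the Balbiani body gene buc. The linker histone gene of oocytes, h1m, had 1.17, 0 and 1.12 normalised counts in EM-juveniles, against 498, 176 and 129 in control juveniles. Of 9 germ cell genes tested, 3 were called lower, against 0.663% of all genes tested: dazl, tdrd1 and ca15b. Without control replicate 2 these were 6, against 0.816%, with ddx4, piwil1 and piwil2 added. The gene ddx4, vasa, had 49.8, 31.1 and 20.2 in EM-juveniles, against 175, 27.3 and 101 in control juveniles. Control replicate 2 was thus the lowest control in ddx4, as it was in each of the 4 male pathway genes. It had 438 normalised counts of oocyte genes, above every EM library. The edgeR quasi-likelihood test called none of the oocyte and germ cell genes, of which it tested 12. Meiosis and sperm genes gave 0 calls of 7, with gapdhs, a glycolytic enzyme gene, at 0.09 ± 0.25 and sycp1, of the synaptonemal complex, at 0.84 ± 0.80 (SE). The mean of gapdhs over all libraries was 2264 normalised counts, against 40.9 for sycp1 and at most 14.3 for the rest of the list. Which cells the gapdhs reads came from was not tested. Nerve and glia genes gave 0 of 5, with the myelin gene mbpa at -0.66 ± 0.39 (SE). Leaving out control replicate 2 gave the same number of calls in every list other than the male pathway, germ cell and cartilage lists. The part of these differences in oocyte and germ cell genes in the values of amh was not tested.

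**Figure D4:**
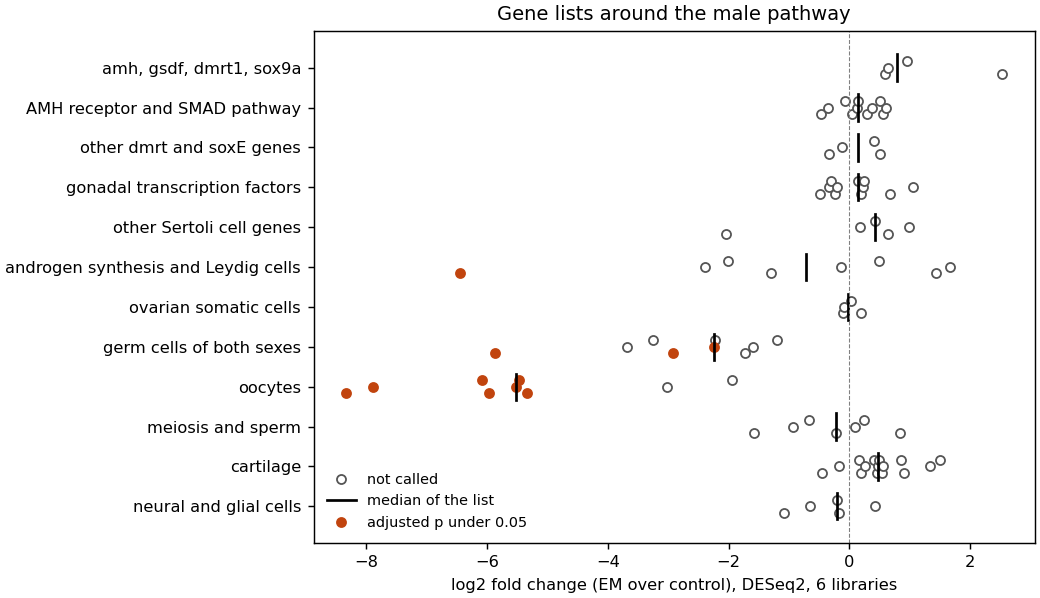
Log2 fold change of EM over control from DESeq2 with 6 libraries (horizontal axis) for every tested gene among the 4 male pathway genes and 11 other lists. Open points were not called, filled points had an adjusted p-value under 0.05, and black bars are medians. The 4 male pathway genes lie above 0 with amh at 2.52, and 7 of 9 oocyte genes are called lower with a list median of -5.52.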

How the data were processed

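Raw read counts per Ensembl gene were deposited for 32520 genes in 6 libraries. Following the study's methods and the submitters' processing notes, the authors mapped stranded reads with HISAT2 2.0.5 to the Ensembl zebrafish reference (GRCz11), removed duplicates with SAMtools 1.5 and counted exon reads on the reverse strand with HTSeq 0.9.1. Groups and replicate numbers came from the sample titles.

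EM and control were compared by DESeq2 1.42.0 (Wald statistic, two-sided) in R 4.3.3, the tool of the study, on all genes, with an adjusted p-value (Benjamini-Hochberg) under 0.05 as the threshold and default filters. Alternatives were edgeR 4.0.16 (quasi-likelihood, with and without its filter), voom in limma 3.58.1 with a weight per sample, TMM factors, a minimum of 10 counts in 3 libraries, Cook's distance or independent filtering off, a replicate block and leaving out each library. Normalised counts are counts divided by size factors, and log2 values had a pseudocount of 1. Exact permutation tests used SciPy 1.17.1. The 95% intervals of single libraries and the floor of 3 counts cover counting error only. No pair of same-group libraries agreed within sampling noise. The libraries come from separate tanks.

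The genes, lists and tests were chosen with earlier results of these data known. Named genes are the 4 members, the 3 nearest profiles of each, and from each list the called genes and the 2 most abundant. The genes bmpr2a, acanb, matn1, cnmd, PPEF2, cyp19a1a, fshr, igf3 and piwil2 fall outside that rule and were chosen after their values were seen. The listed gene cyp11a2, which was not matched and has no value, is named as well. The name table covered 29201 of the identifiers and 95 of 118 listed genes were matched. No sequences are shown.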

Additional observations from a re-analysis of the deposited data

How the results depend on the processing

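The log2 fold changes of the 4 genes were above 0 in every alternative that gave a value. These alternatives share libraries, and 50.1% of all genes tested were above 0 with all 6 libraries. That of amh ran from 2.11 to 3.37 over 21 alternatives and passed the threshold in 2 of them. These were DESeq2 without control replicate 2 (2.13) and DESeq2 without control replicate 3 (3.37), where 1 instead of 0 of the 4 genes was called. The edgeR fits without these libraries did not call amh. The ranges were 0.25 to 1.18 for gsdf, 0.32 to 0.88 for dmrt1 (11 alternatives) and 0.38 to 1.84 for sox9a, with 0 calls. Over all genes, 260 calls became 0 with edgeR, 7 with edgeR without a filter, 93 with voom, 90 with at least 10 counts in 3 libraries, and between 0 and 542 when a library was left out. The last were 542 without EM replicate 1, 127 without EM replicate 2, 126 without EM replicate 3, 128 without control replicate 1 and 270 without either of the other controls in DESeq2. In edgeR they were 190 without EM replicate 1, 127 without control replicate 2 and 0 without any of the others. For calls in the lists, the alternative without control replicate 2 was added after seeing the data. The cause of these changes was not tested.

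A replicate block on the numbers in the titles gave 174 calls in DESeq2 and 48 in edgeR. The log2 fold change of amh was then 2.94 (adjusted p-value 0.246) in DESeq2. Deviations of same-numbered libraries correlated at -0.00489, 0.161 and -0.181, and 2 of 6 libraries correlated best with their own number, so the numbers were not taken as pairs. Depth limits dmrt1 most, with 32 reads in all.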
